A study of Mus musculus with 7 samples.

Results

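The genes examined here make up the acid-handling machinery of the cell: 36 named genes that encode subunits of the vacuolar proton pump (V-ATPase), sodium-proton exchangers, bicarbonate transporters, lactate transporters, carbonic anhydrases, and proton, chloride and cation channels of endosomes and lysosomes. They were taken by gene symbol from a count table of 53379 genes, and all 36 symbols were found. RNA was measured in macrophages sorted as CD45-, CD11b- and F4/80-positive cells from tumours of MC38, a mouse colon carcinoma line, 21 days after implantation. All mice were C57BL/6J on a high-fat diet. The groups were 4 Gpr65 wild-type and 3 Gpr65 knockout mice, with 1 library from each mouse. The sources used here do not say how the knockout allele was made or whether littermates were used. Gpr65 is a receptor that senses extracellular protons, so the comparison asks how the acid-handling genes of tumour macrophages differ when this sensor is missing.

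The V-ATPase uses ATP to pump protons into endosomes and lysosomes. Its membrane domain V0 carries the protons, and its cytosolic domain V1 splits ATP. Chloride-proton exchangers of the CLC family and cation channels carry the counter-ions that let the lumen become acidic. At the plasma membrane, monocarboxylate transporters move lactate together with a proton, sodium-proton and bicarbonate exchangers set the cytosolic pH, and carbonic anhydrases interconvert carbon dioxide and bicarbonate. Phagocytes depend on this machinery to digest what they take up, and tumours rich in lactate expose them to an acidic surrounding.

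Gpr65 itself (chromosome 12) was at 93.4, 112, 92.6 and 65.2 CPM (counts scaled to the size of the library, with TMM factors) in wild-type mice 1 to 4, and at 0.683, 0.976 and 1.1 CPM in knockout mice 1 to 3. The groups did not overlap, and the difference was -6.62 on the log2 scale (SE 0.30; edgeR quasi-likelihood adjusted p = 8e-05). The 7 libraries held 22449772 to 30483733 counts. Of the 10 macrophage markers none was absent, and their summed level was 16968 to 19298 CPM in the wild-type libraries but 16609, 33937 and 22538 CPM in knockouts 1 to 3. Knockout 1 had no count for 940 of the 16234 genes tested, against 51 to 281 in the other libraries. Counts that change without this library, and the fold changes named with them, are given with and without it. In sorted bulk samples, fewer cells of a type and less RNA per cell cannot be told apart.

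Several of these genes belong to the lysosomal network that the MiT-TFE transcription factors bind at a CLEAR-type E-box. The motif TCACGTG was searched on both strands of the RefSeq promoters of GRCm38.p6, from 250 bases before to 50 bases after each start site. An entry was held for 26 of the 36 genes, and 7 of the 26 (26.9%) had the motif, compared with 4.29% of all 27025 genes with a promoter and 3.77% of 32851 promoters. The 7 genes were Atp6v0b, Atp6v0d1, Atp6v0e, Atp6v1a, Slc16a1, Clcn7 and Mcoln1. A match is a description of the letters and not evidence of binding, which was not measured. Windows of 30 bases are printed for 6 of them and for Slc16a3. Of the 7, Slc16a1 is not printed. It is a lactate transporter with the motif at -201 to -195 from its start site. The windows are therefore no contrast of pump and lactate genes. Capitals mark TCACGTG on either strand (overlapping matches run on), or, for Slc16a3, the core ACGTG of the hypoxia-response element. Each is written 5′ to 3′ on the gene's strand.
Atp6v0b, chr4:117887339-117887368, minus strand: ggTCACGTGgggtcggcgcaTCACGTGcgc
Atp6v0d1, chr8:105566050-105566079, minus strand: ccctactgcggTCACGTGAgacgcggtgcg
Atp6v0e, chr17:26676387-26676416, plus strand: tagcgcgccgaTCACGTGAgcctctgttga
Atp6v1a, chr16:44139373-44139402, minus strand: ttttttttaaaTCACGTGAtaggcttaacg
Clcn7, chr17:25133364-25133393, plus strand: tccgtcgtcagTCACGTGggcaccgatgat
Mcoln1, chr8:3500462-3500491, plus strand: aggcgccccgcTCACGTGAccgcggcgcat
Slc16a3, chr11:120949034-120949063, plus strand: gcggtgACGTGcgcgggggACGTGccgcgc
The core ACGTG or GCGTG, searched on both strands, is short. It overlaps TCACGTG and was found in 19 of the 26 promoters (73.1%), against 46.7% of all genes with a promoter. Slc16a3 thus held the shorter core but not the longer motif. Atp6v0b, Clcn7 and Mcoln1 each held the longer motif at more than 1 place. Both places of Atp6v0b lie in its printed window. Clcn7 and Mcoln1 have a further copy outside theirs, with its first base at 7 and -72 from the start site.

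No acid-handling gene passed the test for a genotype difference. Of the 36 genes, 33 passed the filter on low counts and were tested, and 0 passed edgeR's adjusted p of 0.05 in either direction, where 6 of all 16234 tested genes did (0.037%, of which 0.0246% higher and 0.0123% lower in knockouts). The lowest adjusted p in edgeR was 0.73, for Atp6v0d2. At an unadjusted p of 0.05, 3 of the 33 were past the threshold, compared with 5.37% of all genes. Slc9a8 and Clcn7 were higher in knockouts, as were 2.57% of all genes, and Atp6v0d2 was lower, as were 2.79%. The values of knockout and wild-type libraries did not overlap for 3 of the 33, Slc9a8, Atp6v0d2 and Clcn5, and for 6.12% of all genes. DESeq2 also called 0 of the 36, with 131 calls over all genes (0.719%). There the adjusted p of Atp6v0d2 was 0.054.

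Most of the fold changes were small. The log2 fold change was under 0.5 in size for 29 of the 33 (87.9%), against 76.9% of all tested genes, and under 0.25 for 24 of them. Signs were mixed, with 19 negative and 14 positive and a median of -0.03 on the log2 scale. Over all tested genes the median was -0.00, with 50.3% negative and 49.7% positive. Scaling by library totals alone moved the median of all genes to -0.11 and that of the acid-handling genes to -0.15, with 27 negative and 6 positive, so a direction near 0 depends on the scaling. The standard error of a single fold change ranged from 0.15 (Atp6v0d1) to 1.02 (Car2), with a median of 0.20.

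**Figure D1:**
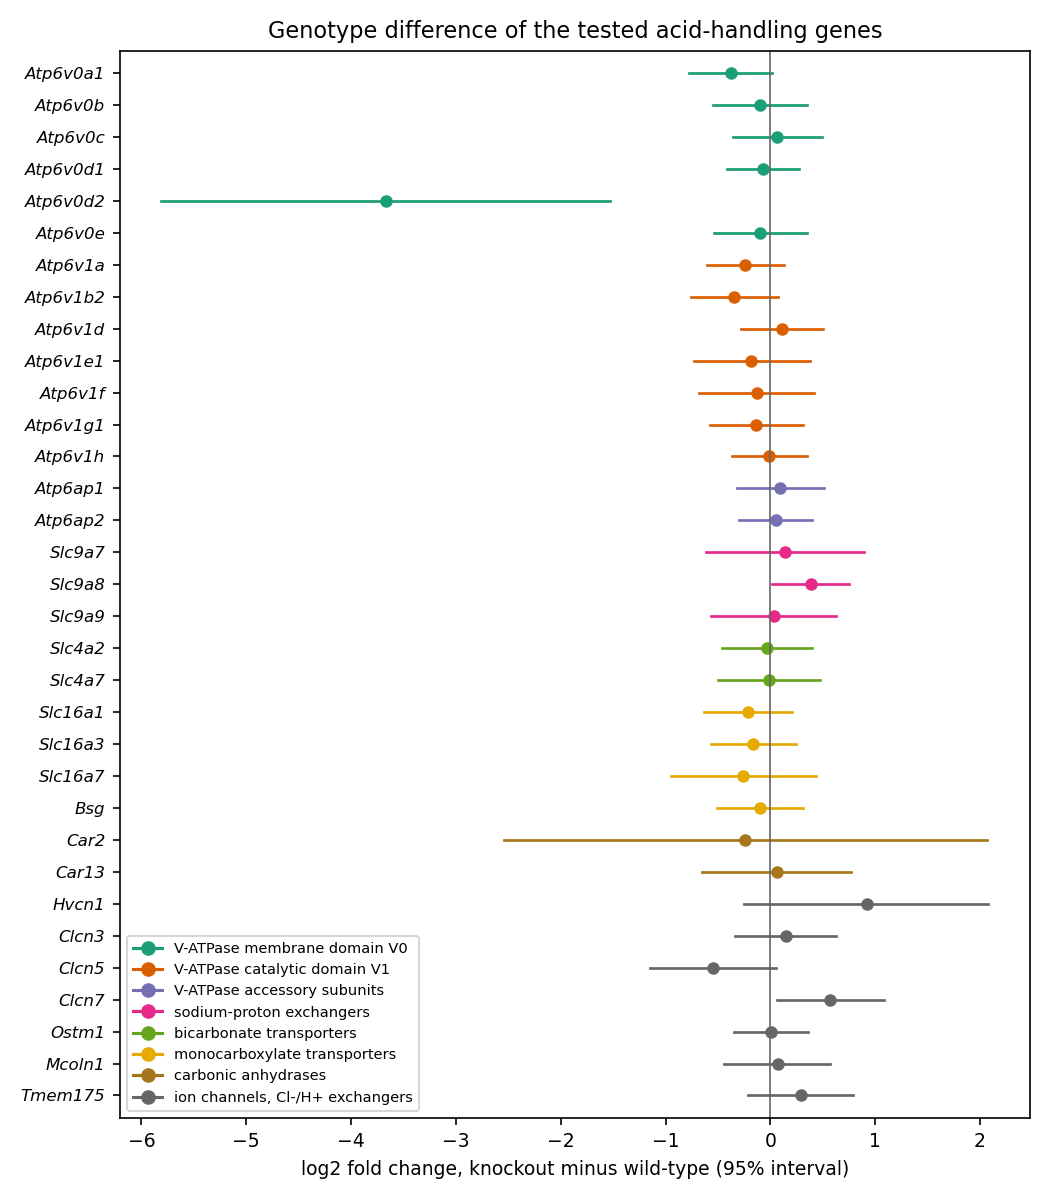
Log2 fold change of the 33 tested genes, knockout minus wild-type (points), with its 95% interval from edgeR (lines), coloured by role. The points lie near 0 with the exception of Atp6v0d2 at -3.67, Hvcn1 at 0.92, Clcn7 at 0.57 and Clcn5 at -0.55, and no gene passed the adjusted threshold.

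Levels of different genes were compared per kilobase of exons. As counted, the most abundant was Bsg, the chaperone of the lactate transporters, at 254 CPM per kilobase over the 7 libraries. Atp6ap1 at 195, Atp6v0b at 182 and Atp6v1f at 139.9 followed. The ranks of Atp6v0c and Atp6v1g1 are uncertain, since pseudogenes took part of the counts of each pair, as given below. The exchangers were far lower, between 1.34 (Slc9a7) and 5.75 CPM per kilobase (Slc4a2). The carbonic anhydrases lay between 0.0366 (Car12) and 1.81 CPM per kilobase (Car13). The machinery was therefore represented mainly by the proton pump, Bsg, Slc16a3 at 68.2 and Clcn7 at 36.1 CPM per kilobase.

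**Figure D2:**
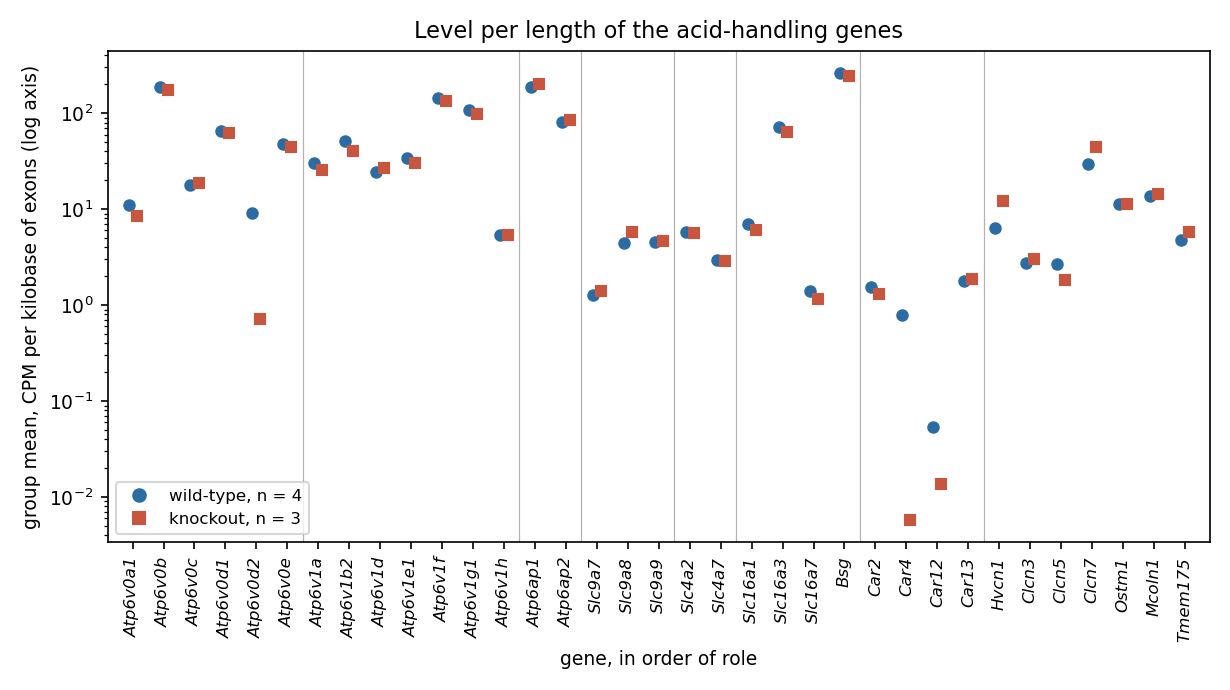
Mean CPM per kilobase of exons (log axis) of each gene with counts, in wild-type (circles, n = 4) and knockout libraries (squares, n = 3), ordered by role with vertical lines between roles. The group means nearly coincide for most genes, whereas Atp6v0d2, Car4 and Car12 lie well apart, the last 2 of them at very low levels.

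Among the membrane-domain genes, Atp6v0d2 stood out. It encodes one of 2 forms of the d subunit, the form known from osteoclasts and from macrophages that fuse or respond to interleukin-4, and lies on chr4:19876841-19922605 (GRCm38, minus strand). Its level was 13.5, 51.5, 6.27 and 27.4 CPM in wild-type mice 1 to 4 (24.7 ± 19.9, SD, n = 4), and 1.67, 0.244 and 3.86 CPM in knockouts 1 to 3 (1.93 ± 1.82, SD, n = 3). Every knockout was below every wild-type mouse, but the wild-type mice themselves differed widely. The wild-type libraries held 189 to 1336 counts and the knockout libraries 6 to 105. The wild-type mean was 12.8 times the knockout mean. The log2 fold change was -3.67 (SE 0.95, 95% interval -5.81 to -1.53), at an edgeR unadjusted p of 0.00379 and an adjusted p of 0.73. An exact permutation test (two-sided) of the CPM values gave p = 0.0857, where the smallest possible is 0.0286. Leaving out single libraries gave -4.66 to -3.02.

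The ubiquitous form Atp6v0d1 lies on chromosome 8. It was at 109, 126, 108 and 127 CPM in wild-type and 98.4, 119 and 119 CPM in knockout libraries. These groups overlapped, with a log2 fold change of -0.07 (SE 0.15; edgeR adjusted p = 1.0). As a share of both d forms per kilobase, Atp6v0d2 made up 7.59, 21.3, 3.70 and 12.5% in wild-type and 1.11, 0.136 and 2.09% in knockout libraries. The d subunit was thus encoded mainly by Atp6v0d1 in every library, and the share of the d2 form was largest in wild-type mice 2 and 4.

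Markers of other cells that express Atp6v0d2 were set beside it. In the osteoclast-type list of 7 markers, 6 were tested, 5 of them with a negative fold change. At an edgeR unadjusted p of 0.05, 3 of the 6 were lower in knockouts, as were 2.79% of all tested genes. None passed the adjusted threshold. Their summed level was 613, 821, 492 and 477 CPM in wild-type and 307, 626 and 651 CPM in knockout libraries. Acp5 was the largest part of this sum in every library. In the sum, unlike in Atp6v0d2, wild-type 4 was the lowest wild-type library and knockouts 2 and 3 were above wild-type 1, 3 and 4. Calcr, which defines osteoclasts, was at 0 in all libraries. The single markers differed from each other. Dcstamp, needed for cell fusion, was at 21.1, 52.8, 13.1 and 40.9 CPM in wild-type and 21.1, 4.92 and 8.38 CPM in knockout libraries, highest in wild-type mice 2 and 4. Ctsk (cathepsin K), at 107, 11.8, 47.2 and 36.5 CPM in wild-type and 17.6, 0.488 and 0.551 CPM in knockouts, was lowest in wild-type 2 among the wild-type mice. Nfatc1, a transcription factor of osteoclasts, was at 200.4, 81.3, 165 and 95.5 CPM in wild-type and 109, 127 and 139 CPM in knockouts, with wild-type 2 and 4 lowest of all. Acp5 (tartrate-resistant acid phosphatase) was at 252, 535, 220.4 and 246 CPM in wild-type and 141, 475 and 446 CPM in knockouts. Ocstamp was at 29.4, 139.7, 44.2 and 56.9 CPM in wild-type, highest in mice 2 and 4, and 18.1, 19.5 and 56.9 CPM in knockouts. Oscar was at 2.29, 0, 1.29 and 0.694 CPM in wild-type and 0 in all knockouts. The summed level of the 6 MC38 and epithelial markers was 126, 379.9, 136 and 451 CPM in wild-type and 168, 41.9 and 78.0 CPM in knockouts. All 3 of those tested had a negative fold change, none of the 6 was at 0 throughout, and nearly the whole sum was Cdh1 (E-cadherin), which interleukin-4-treated macrophages also express. The part of either marker list in the Atp6v0d2 difference was not tested. These markers were picked with their values in view.

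The a subunit of V0 has several forms. Atp6v0a1 was at 76.0, 66.0, 76.6 and 73.3 CPM in wild-type (73.0 ± 4.85, SD, n = 4) and 70.0, 47.3 and 50.4 CPM in knockout libraries (55.9 ± 12.3, SD, n = 3). Knockouts 2 and 3 lay below all wild-type mice, while knockout 1 fell among them. On the log2 scale the difference was -0.38 (SE 0.18; adjusted p = 0.94 in edgeR). The most abundant form was Tcirg1, the a3 subunit of lysosomes and osteoclasts, which was not among the 36 genes but on a list of other V-ATPase subunits. It made up 82.8, 83.6, 82.4 and 83.1% of the a forms per kilobase in wild-type and 85.2, 83.8 and 87.0% in knockout libraries. These shares did not overlap between the groups, although the levels of Tcirg1 did, at 504 to 569.9 CPM in wild-type and 529 to 718 CPM in knockouts (log2 fold change 0.28, SE 0.17; edgeR adjusted p = 1.0). Atp6v0a2 held 6.85 to 12.1% of the a forms, and Atp6v0a4 at most 0.0233% in any library.

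**Figure D3:**
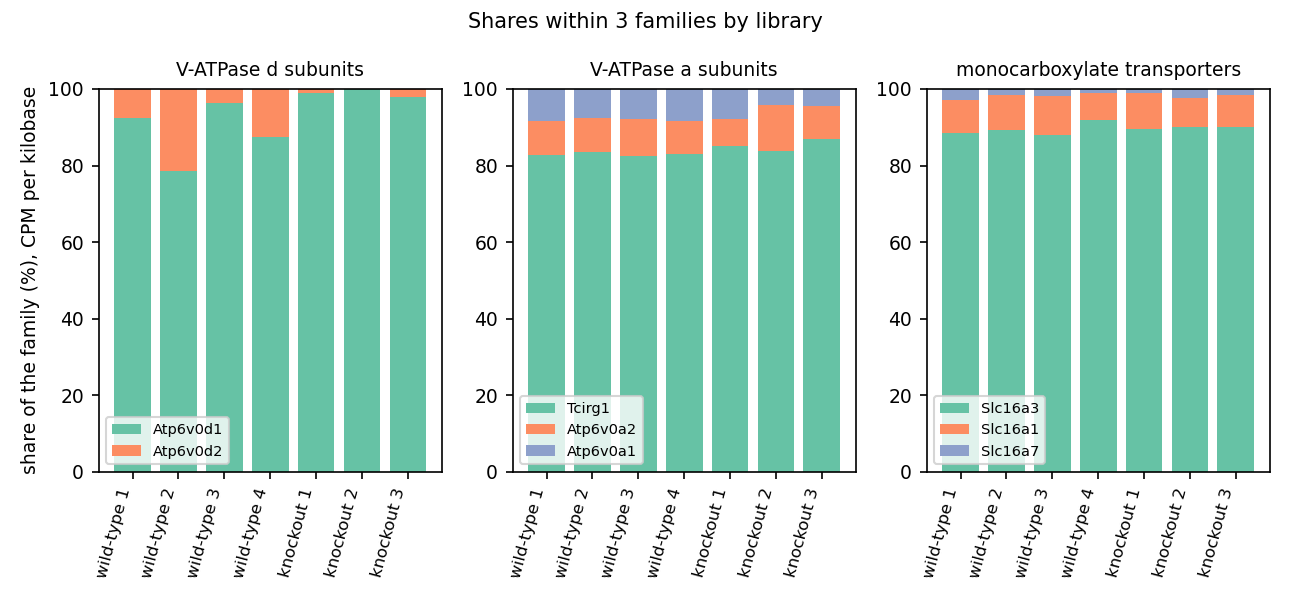
Share in percent of the summed CPM per kilobase held by each gene, with 1 bar per library. The sets are the V-ATPase d subunits, the V-ATPase a subunits and the monocarboxylate transporters Slc16a1, Slc16a3 and Slc16a7. Atp6v0d1, Tcirg1 and Slc16a3 hold most of their set in all 7 libraries, and the Atp6v0d2 share is visible mainly in the wild-type bars.

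The proteolipid ring of V0 is encoded by Atp6v0b (c″) and Atp6v0c (c). Atp6v0b was at 358, 483, 306 and 385 CPM in wild-type and 383, 386 and 306 CPM in knockout libraries. Its groups overlapped, with a log2 fold change of -0.10 (SE 0.20; edgeR adjusted p = 1.0). Atp6v0c was counted at only 51.2 to 76.0 CPM in wild-type and 54.8 to 69.3 CPM in knockout libraries. Its processed pseudogene Atp6v0c-ps2 (chr6:37806086-37806550, 465 bases) took 87.2 to 90.5% of the summed counts of both in each library. Of the pseudogene's 416 different 50-base words, 88.0% also occur in Atp6v0c, so the origin of reads in that stretch is uncertain. Gene and pseudogene together amounted to 537 ± 101 CPM in wild-type (SD, n = 4) and 569 ± 10.4 CPM in knockouts (SD, n = 3). Atp6v0e, a small subunit of V0, was at 140.5 to 217 CPM in wild-type and 143 to 194 CPM in knockout libraries.

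All 7 tested genes of the catalytic domain had overlapping groups. Atp6v1b2, the nucleotide-binding B subunit on chromosome 8, was at 269, 324, 242 and 251 CPM in wild-type and 181, 256 and 204 CPM in knockout libraries. Only knockout 2 reached the wild-type range. On the log2 scale they differed by -0.35 (SE 0.18; adjusted p = 0.99 in edgeR). Atp6v1f, the F subunit of the central stalk, was the most abundant V1 gene per length as counted. It was at 136, 215, 121 and 146 CPM in wild-type and 140.2, 175 and 108 CPM in knockout libraries, which overlapped (log2 fold change -0.13, SE 0.24). Atp6v1a, the ATP-splitting A subunit, was at 152 to 204 CPM in wild-type and 148 to 168 CPM in knockouts (-0.24, SE 0.16). The stalk genes Atp6v1d and Atp6v1e1 and the regulatory subunit Atp6v1h had log2 fold changes of 0.11, -0.18 and -0.01. For Atp6v1g1, another stalk gene, the log2 fold change was -0.14, and its pseudogene Gm13453 took 45.2 to 48.7% of the summed counts of both. That sum was 225 ± 44.2 CPM in wild-type (SD, n = 4) and 206 ± 31.3 CPM in knockouts (SD, n = 3). The rank of Atp6v1f above Atp6v1g1 per length therefore depends on how the reads of this pair are assigned. Both pseudogenes were picked with their values in view.

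Atp6v1c1, the C subunit that clamps V1 to V0, had 0 counts in all 7 libraries, which allows up to 0.0159 CPM over the libraries together (3 counts, counting error only). None of its 5781 different 50-base words occurs in another gene. Of 21865 protein-coding genes, 5387 were at 0 throughout. The other C form, Atp6v1c2, was at 0 to 0.475 CPM. Whether the zero comes from the cells or from the counting was not tested.

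Over the 14 V0 and V1 genes, 13 were tested, 11 with a negative and 2 with a positive fold change. Their median was -0.13 on the log2 scale, and leaving aside Atp6v0d2 they ranged from -0.38 to 0.11, with 95% intervals that together span -0.78 to 0.50. Wild-type mouse 2 was the highest library for 8 of the 13, whereas knockout 3 was the lowest for 4 and knockout 1 for 3. Their summed level was 1586 to 2282 CPM in wild-type (1875 ± 295, SD, n = 4) and 1514 to 1844 CPM in knockout libraries (1678 ± 165, SD, n = 3), which overlapped. The accessory subunits went the other way in sign. Atp6ap1 was at 585, 594, 592 and 518 CPM in wild-type and 496, 737 and 600.1 CPM in knockouts, and knockout 1 was below all wild-type mice while knockout 2 and 3 were above them (0.09, SE 0.18). Atp6ap2, also known as the prorenin receptor, differed by 0.05 on the log2 scale (SE 0.16).

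**Figure D4:**
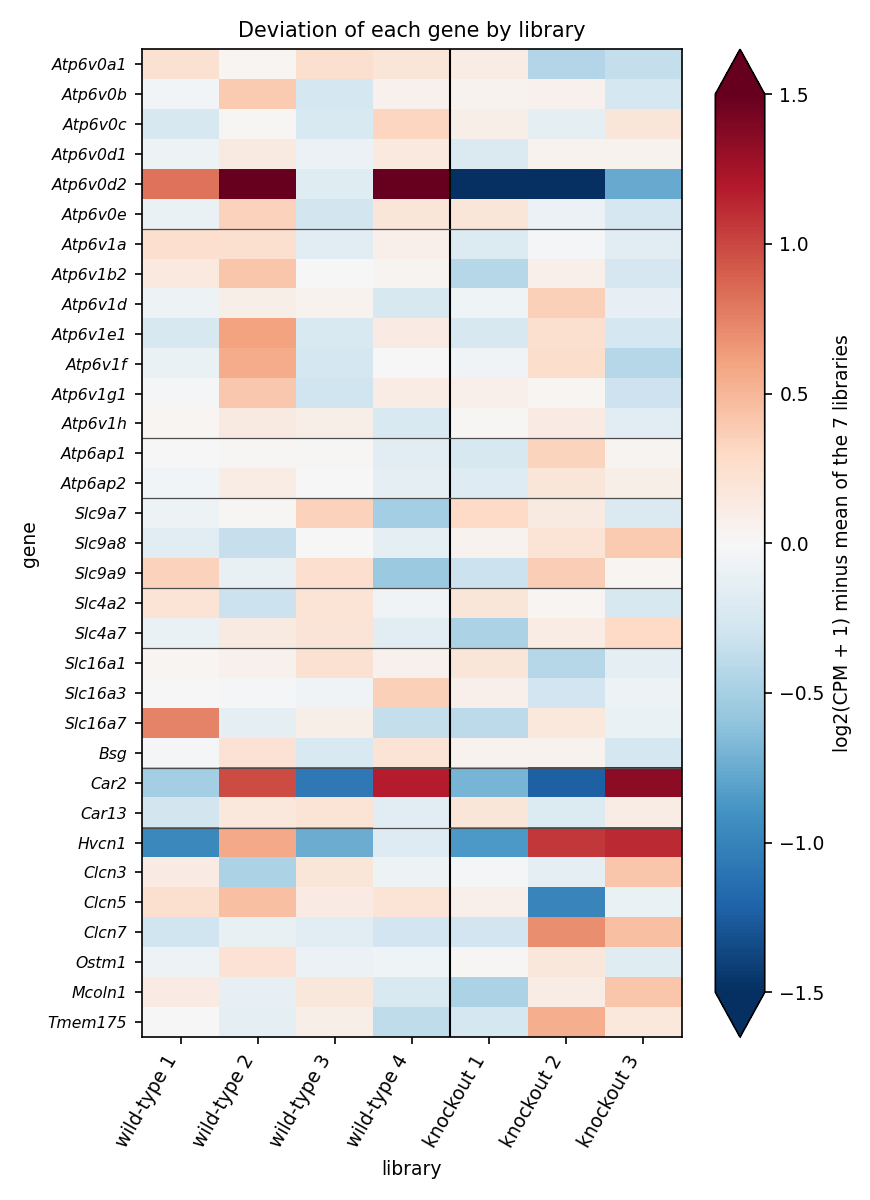
Deviation of each tested gene from its own mean over the 7 libraries, on the log2(CPM + 1) scale, with libraries as columns and genes as rows. Wild-type mouse 2 is highest for 8 of the 13 V0 and V1 genes. Clcn7, Hvcn1 and Tmem175 are above every wild-type library in knockouts 2 and 3 but not in knockout 1, Tmem175 only slightly in knockout 3. Hvcn1 is also higher in wild-type 2 than in the other wild-type mice. Atp6v0d2 and Car2 vary most between single mice.

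All 3 sodium-proton exchangers were of the organelle type. Slc9a8 (NHE8, chr2:167421712-167477000, plus strand), found in the Golgi and endosomes, was at 40.0, 35, 45.2 and 40.3 CPM in wild-type (40.1 ± 4.15, SD, n = 4) and 46.5, 51.9 and 59.0 CPM in knockout libraries (52.5 ± 6.29, SD, n = 3). All knockouts were above all wild-type mice, though the gap between wild-type 3 and knockout 1 was small. It was the only gene of the 36 with this pattern in that direction, which 2.8% of all tested genes showed. The knockout mean was 1.31 times the wild-type mean, with a log2 fold change of 0.39 (SE 0.16, 95% interval 0.02 to 0.75; edgeR adjusted p = 0.92). A two-sided exact permutation test gave p = 0.0286, the smallest it can give here, unadjusted for the number of genes. With library totals as the only scaling, the groups of Slc9a8 overlapped. Under that scaling 0 of the 33 lay wholly above wild-type, as did 1.33% of all tested genes, and 4 wholly below, as did 5.32%. Slc9a7 (NHE7 of the trans-Golgi network) was at 3.22 to 6.64 CPM and Slc9a9 (NHE9 of late endosomes) at 17.1 to 33.2 CPM over all libraries, with log2 fold changes of 0.14 (SE 0.33) and 0.03 (SE 0.27).

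Neither bicarbonate transporter passed the test. Slc4a2 (AE2), which exchanges chloride for bicarbonate, was at 54.7, 37.7, 54.8 and 45.8 CPM in wild-type and 53.9, 48.3 and 39.9 CPM in knockout libraries. The groups overlapped (log2 fold change -0.03, SE 0.19, 95% interval -0.46 to 0.40). It shares 1141 exonic bases with Fastk on the opposite strand, a gene with 19074 counts against 9047 for Slc4a2, and without strand such reads cannot be told apart. Slc4a7 (NBCn1), which brings bicarbonate in with sodium, was at 39.4 to 50.5 CPM in wild-type and 31.3 to 54.3 CPM in knockouts (-0.01, SE 0.21).

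Slc16a3 (MCT4), the exporter of glycolytic cells, held 87.9 to 91.8% of the RNA of the 3 monocarboxylate transporters per kilobase. Transport itself was not measured. It was at 361, 353, 347 and 459.6 CPM in wild-type and 380.5, 294 and 342 CPM in knockout libraries. Wild-type mouse 4 was the highest and knockout 2 the lowest, and the groups overlapped (log2 fold change -0.17, SE 0.18; edgeR adjusted p = 1.0). Slc16a1 (MCT1) was at 29.4, 30.2, 33.8 and 30.1 CPM in wild-type and 32.7, 21.1 and 26.1 CPM in knockouts, again with knockout 2 lowest (-0.21, SE 0.18). Slc16a7 (MCT2) was at 25.3, 13.3, 15.8 and 11.3 CPM in wild-type and 11.0, 16.5 and 13.7 CPM in knockouts (-0.26, SE 0.31). Bsg (CD147, basigin), which carries MCT1 and MCT4 to the surface, was at 451, 529.9, 389 and 528 CPM in wild-type and 473, 475 and 379.9 CPM in knockout libraries. All 4 fold changes were negative, between -0.26 and -0.10 on the log2 scale, and none passed the test.

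The carbonic anhydrases were few in counts and variable. Car2, the fast cytosolic enzyme, was at 1.46, 5.86, 0.664 and 6.91 CPM in wild-type and 1.16, 0.488 and 7.83 CPM in knockout libraries. High and low mice occurred in both groups, and the fold change of -0.24 had an SE of 1.02 and a 95% interval from -2.54 to 2.07. Car13, another cytosolic form, was steadier, at 3.24, 4.71, 4.91 and 3.55 CPM in wild-type and 4.82, 3.46 and 4.52 CPM in knockouts (0.06, SE 0.31). Car4, anchored to the outside of the membrane, had 0 counts in wild-type mice 1 and 3 and was at 5.02 CPM in wild-type 2 and 1.17 CPM in wild-type 4. In the knockouts it was at 0.0342 CPM in mouse 1 and 0 in the others, and it did not pass the filter on low counts. Car12, a membrane form, was at most 1.17 CPM in wild-type and 0.163 CPM in knockouts and was not tested either. The high wild-type libraries of Car4 are the same mice 2 and 4 in which Atp6v0d2 was highest, which was noticed after the values were seen.

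Clcn7, Clcn5 and Hvcn1 had the largest fold changes among the channels and chloride-proton exchangers. Clcn7 (chr17:25133391-25162104, plus strand), the chloride-proton exchanger of lysosomes, was at 149, 171, 163 and 151 CPM in wild-type (158 ± 9.98, SD, n = 4) and 151, 299.8 and 253 CPM in knockout libraries (235 ± 76.3, SD, n = 3). Knockouts 2 and 3 were above every wild-type mouse, while knockout 1 lay within their range. The log2 fold change was 0.57 (SE 0.23, 95% interval 0.06 to 1.08), with an edgeR unadjusted p of 0.0334 and adjusted p of 0.92. It was 0.79 without knockout 1 (edgeR adjusted p = 0.12) and 0.35 without knockout 2. Ostm1, the partner that Clcn7 needs for stability, was at 75.9 to 94.6 CPM in wild-type and 71.6 to 91.1 CPM in knockouts (0.01, SE 0.16).

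Clcn5 (chrX:7153810-7319358, minus strand), the related exchanger of early endosomes, was at 30.2, 35.3, 27.9 and 29.5 CPM in wild-type (30.7 ± 3.19, SD, n = 4) and 26.9, 12.4 and 23.7 CPM in knockout libraries (21.0 ± 7.65, SD, n = 3). All knockouts were below all wild-type mice, and knockout 2 was the lowest by far. With Atp6v0d2 it made up the 2 genes of the 36 with knockouts wholly below wild-type, a pattern that 3.33% of all tested genes showed. The log2 fold change was -0.55 (SE 0.26, 95% interval -1.15 to 0.05; edgeR adjusted p = 0.97), and -0.28 without knockout 2. The two-sided exact permutation test gave p = 0.0286, the smallest possible. Clcn3, an exchanger of late endosomes, was at 34.6 to 55.4 CPM in wild-type and 43.9 to 65.1 CPM in knockouts (0.15, SE 0.22).

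Hvcn1, the voltage-gated proton channel that supports the oxidative burst, was at 13.1, 39.9, 15.5 and 23.1 CPM in wild-type (22.9 ± 12.1, SD, n = 4) and 14.2, 56.6 and 59.0 CPM in knockout libraries (43.3 ± 25.2, SD, n = 3). The groups overlapped through knockout 1, and the difference was 0.92 on the log2 scale (SE 0.51; adjusted p = 1.0 in edgeR). Its values per library are given because they share the pattern of Clcn7, which was seen in the data. It shares 1574 exonic bases with Tctn1 on the opposite strand, which had 881 counts against 5862. Tmem175, a potassium and proton channel of lysosomes, was at 29.8, 27.1, 32.0 and 22.9 CPM in wild-type and 24.8, 44.1 and 33.7 CPM in knockouts (0.29, SE 0.22), and shares 2090 exonic bases with Dgkq on the opposite strand, with 2915 counts. Mcoln1 (TRPML1), the lysosomal calcium channel, was at 88.1 to 117 CPM in wild-type and 74.3 to 138 CPM in knockouts (0.07, SE 0.22). Of the 10 macrophage markers, 9 had a positive fold change. Their summed level was also higher in knockouts 2 and 3 (33937 and 22538 CPM) than in knockout 1 (16609 CPM) or the wild-type libraries. Much of that sum was C1qa, C1qb and C1qc, at 6268, 11741 and 8230 CPM in knockout 2. Ptprc, Adgre1, Mertk and these C1q genes were above every wild-type library in both knockouts 2 and 3. Itgam, Csf1r, Cd68 and Fcgr1 were not. The part of the macrophage markers in the values of Clcn7, Hvcn1 and Tmem175 was not tested.

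**Figure D5:**
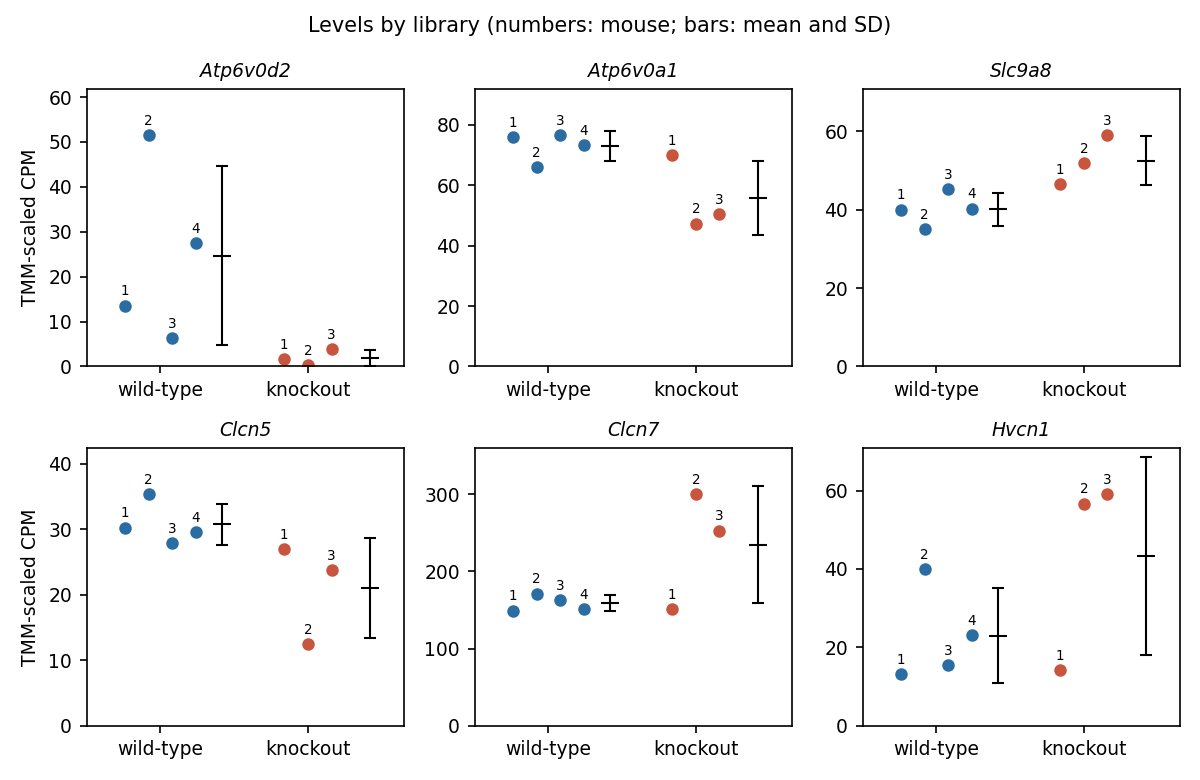
TMM-scaled CPM of Atp6v0d2, Atp6v0a1, Slc9a8, Clcn5, Clcn7 and Hvcn1, with 1 point per library numbered by mouse and the mean and SD of each group (wild-type n = 4, knockout n = 3). For Slc9a8, Clcn5 and Atp6v0d2 the groups do not overlap, while for Atp6v0a1, Clcn7 and Hvcn1 knockout 1 lies within the wild-type range.

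The number of genes separated by genotype changed most when knockout 1 was left out. Without it, 5 genes lay wholly above wild-type in the knockouts (Atp6ap1, Slc9a8, Hvcn1, Clcn7 and Tmem175), where 10.1% of all tested genes did. Another 5 lay wholly below (Atp6v0a1, Atp6v0d2, Slc16a1, Slc16a3 and Clcn5), where 9.66% of all tested genes did. With all libraries the counts were 1 and 2, where 2.8% and 3.33% of all tested genes were separated. The shares over all genes thus rose as well without knockout 1. Without knockout 1 the log2 fold changes of Atp6v0a1, Slc16a1 and Slc16a3 were -0.59, -0.40 and -0.27, those of Hvcn1, Tmem175 and Atp6ap1 were 1.31, 0.46 and 0.21, and those of Slc9a8 and Clcn5 were 0.46 and -0.78. In neither case did a gene of the 36 pass the adjusted threshold in edgeR.

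Related genes outside the 36 were followed by 7 lists of other subunits, exchangers, transporters, anhydrases and channels. Of their 77 genes 45 were tested, and 0 passed edgeR's adjusted threshold, with 28 negative and 17 positive fold changes and a median of -0.15 on the log2 scale. At an unadjusted p of 0.05 there were 5 of the 45, all lower in knockouts, where 2.79% of all tested genes were past it and lower. Among these, Car5b, the mitochondrial carbonic anhydrase, was at 2.45, 4.75, 1.69 and 5.56 CPM in wild-type and 0, 0.163 and 0.551 CPM in knockout libraries, without overlap. Its log2 fold change was -3.90 (SE 1.03), with an adjusted p of 0.73 in edgeR and 0.0016 in DESeq2. Slc9a4, the sodium-proton exchanger NHE4, was at 0.398 to 0.877 CPM in wild-type and 0 to 0.122 CPM in knockouts (-3.05, SE 1.04; edgeR adjusted p = 0.82).

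Other related genes were more abundant. Emb (embigin), a chaperone of lactate transporters, was at 193, 299, 161 and 222 CPM in wild-type and 186, 101 and 119 CPM in knockouts (-0.69, SE 0.28; edgeR adjusted p = 0.92). Slc16a13, a monocarboxylate transporter, was the only tested gene of these lists whose knockouts were all above wild-type, as were 2.8% of all tested genes. It was at 11.7 to 13.4 CPM in wild-type and 14.1 to 22.1 CPM in knockouts (0.43, SE 0.22, edgeR adjusted p = 0.99, and 0.18 without knockout 1). Of the 45 tested genes of these lists, 3 lay wholly below wild-type, as did 3.33% of all tested genes. Car9, the hypoxia-inducible surface anhydrase, held 42.3 to 74.4% of all 16 carbonic anhydrases per kilobase and was at 18.1, 20.1, 19.5 and 14.8 CPM in wild-type and 5.57, 18.4 and 15.0 CPM in knockouts, lowest in knockout 1 (-0.48, SE 0.37, and -0.13 without that library). Slc9a3r1, the scaffold NHERF1, differed by -0.10 on the log2 scale (SE 0.23). The log2 fold changes of Slc26a11, an anion exchanger, Tmem206, the proton-activated chloride channel, and Rogdi, which helps assemble the pump, were -0.39, -0.15 and 0.29, and without knockout 1 the first was -0.02 and the last 0.53.

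The lists that border on acid handling were described in the same way. Of 19 genes of lactate production and the hypoxia response, all tested, 0 passed in edgeR, 16 had a negative fold change and 5 lay wholly below wild-type in the knockouts (3.33% of all tested genes did), with a median of -0.25. Ero1l, a hypoxia-induced oxidase of the endoplasmic reticulum, was at 225, 183, 183 and 214 CPM in wild-type and 147, 94.9 and 112 CPM in knockouts (-0.77, SE 0.19; adjusted p = 0.66 in edgeR and 0.049 in DESeq2). Egln3, a prolyl hydroxylase that marks HIF for decay, was at 40.9 to 65.4 CPM in wild-type and 24.7 to 36.1 CPM in knockouts (-0.78, SE 0.22; edgeR adjusted p = 0.74). The glucose transporter Slc2a1 was at 321 to 411 CPM in wild-type and 267 to 289.7 CPM in knockouts (-0.45, SE 0.16; edgeR adjusted p = 0.83). Ldha, which makes lactate, overlapped between the groups (-0.16, SE 0.17).

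Among 24 lysosomal membrane proteins and hydrolases, all tested, 0 passed in edgeR, 21 had a positive and 3 a negative fold change, and the median was 0.19. The most abundant, Psap (prosaposin), was at 5194, 7500, 5598 and 5759 CPM in wild-type and 4258, 10941 and 9640 CPM in knockouts. As for Clcn7, knockout 1 was low and knockouts 2 and 3 were high (0.46, SE 0.32; edgeR adjusted p = 1.0, and 0.76 without knockout 1). Of the 4 MiT-TFE factors none passed, with 3 positive fold changes and 1 negative. The most abundant, Tfe3, differed by 0.12 on the log2 scale (SE 0.23). The negative one was Tfec (-1.29, SE 0.73), picked with its values in view. Tfec was at 9.32, 65.7, 7.47 and 43.1 CPM in wild-type and 13.5, 7.77 and 17.1 CPM in knockouts, highest in wild-type mice 2 and 4. Among receptors related to Gpr65, Gpr4 and Gpr132 did not pass either, with log2 fold changes of 0.66 (SE 0.95) and 0.43 (SE 0.38).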

How the data were processed

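RNA was sequenced from 7 libraries of 7 mice. Per the labels' protocols, polyA RNA was extracted with a column kit and amplified with a SMART-seq kit. The authors deposited raw read counts per gene as whole numbers. The submitters' processing notes name cutadapt 1.15, FastQC 0.11.5, BWA 0.7.12, DESeq2 1.24.0 and GRCm38 (mm10), without role or order. The counting program and its strand setting are not given in the sources used here. BWA does not splice reads, and whether reads over exon junctions were lost was not tested.

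Genes were located by Ensembl identifier in GENCODE M21, and all 36 symbols agreed. Entries with no gene symbol made up 0.000338% of deposited counts. The genotype difference was fitted with edgeR 4.0.16 (R 4.3.3) over all genes passing the default filter by group, 16234 in all, with the robust quasi-likelihood F test, TMM scaling, an intercept and genotype, and Benjamini-Hochberg adjustment at 0.05. Biological variation was large, with a common coefficient of 42.9%. In counts simulated from these libraries over 15654 genes, the fit recovered 17 of 100 changes of 2-fold and 82 of 100 of 4-fold. There were 5 false calls among 104, and most 2-fold changes would be missed. The changes were planted outside the least abundant genes. An adjusted threshold is also looser with 104 calls than with the 6 of the real fit, so recovery in the real data may be lower. Alternatives were other scaling, filters and thresholds, DESeq2 1.42.0, voom in limma 3.58.1, a replicate block and leaving out each library.

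Permutation tests of single genes were exact and two-sided, over all 35 ways of assigning the genotypes. Shares within a family and levels between genes used CPM per kilobase of merged exons. Intervals cover 95%. Shared 50-base words were counted over annotated transcripts.

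The 36 genes, the 11 pathway lists and the 11 marker lists were chosen with earlier results of these data known. Values per library were to be given for genes that passed, did not overlap, had one of the 6 smallest p-values, led their role per kilobase or entered a family share, and from each other list for genes that passed or else up to 3 without overlap, and for the most abundant. Some genes of these lists are not reported here. Besides those named in the text, summed marker levels in wild-type and knockout libraries were 83.6 to 215 and 88.0 to 184 CPM for neutrophils (Ly6g at 0), 23.5 to 77.2 and 15.7 to 372 CPM for T cells, 8.44 to 20.8 and 9.63 to 41.5 CPM for B cells, 0.133 to 0.731 and 0 to 1.30 CPM for erythroid cells, 31.7 to 165 and 32.7 to 58.0 CPM for endothelium (Cldn5 at 0), 119.7 to 320.4 and 37.5 to 301 CPM for fibroblasts, 32.5 to 217 and 48.0 to 78.5 CPM for dendritic cells, and 5.87 to 24.3 and 3.89 to 10.7 CPM for mast cells and eosinophils. Nearly all of the neutrophil sum in knockouts 2 and 3 was Csf3r, at 181 and 133 CPM. Of the 7 neutrophil markers tested, 6 had a negative fold change and only Csf3r a positive one. In knockouts 1 to 3 the T cell sum was 15.7, 56.0 and 372 CPM, and the B cell sum 9.63, 41.5 and 28.1 CPM. All 7 T cell markers had a positive fold change. The part of these cells in the acid-handling values was not tested.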

Additional observations from a re-analysis of the deposited data

Results flagged for a closer look

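Among the 56 sets of 4 wild-type values examined, 3 genes had 1 mouse far from the other 3, measured as the distance to the closest mouse divided by the whole range and read against Dixon's 95% critical value. Chance alone gives this in about 1 of 20 sets. The ratio was 0.883 for Atp6ap1, where wild-type 4 was at 518 CPM and the others at 585 to 594. It was 0.882 for Slc16a3, where the same mouse was at 459.6 CPM and the others at 347 to 361. It was 0.905 for Ostm1, where wild-type 2 was at 94.6 CPM and the others at 75.9 to 77.7.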

How the results depend on the processing

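No acid-handling gene passed the threshold under any of the alternatives run in edgeR, DESeq2 or voom, leave-one-out fits included. The number of calls over all genes was 11 without a filter on low counts, 1 with the replicate block, 131 in DESeq2, and 3 (without knockout 2) to 14 (without knockout 1) when single libraries were left out. Mouse numbers were not taken as pairs, since the deviations of same-numbered mice correlated at 0.0476, 0.0612 and 0.115, and the block left 0 of the 36 genes called. With library totals only, the median fold change of the genes was -0.15 and the median log2 difference of their mean levels -0.16, and 0 genes lay wholly above and 4 wholly below wild-type (Atp6v0d1, Atp6v0d2, Atp6v1b2 and Clcn5), against 1.33% and 5.32% of all tested genes. Left-out libraries gave 1 to 5 above and 2 to 5 below. Without division by length, the share of Tcirg1 was 77.1% in wild-type and 80.1% in knockouts, and that of Slc16a3 in knockouts 89.3%.

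Of 815 alternative values of 51 single genes, 745 kept their sign and their side of the threshold, 68 had the opposite sign, and 2 passed newly, Car5b and Ero1l in DESeq2. Opposite signs occurred only for genes with a fold change of at most 0.29 in size. With library totals only these were Atp6v0c (-0.03), Atp6v1d (-0.02), Atp6ap1 (-0.04), Atp6ap2 (-0.07), Slc9a9 (-0.12), Car13 (-0.02), Ostm1 (-0.10), Mcoln1 (-0.07) and Tfe3 (-0.02), where the shift of all genes was -0.11. In voom they were Atp6v0d1 (0.05), Atp6v1e1 (0.03), Slc9a7 (-0.09), Slc4a7 (0.12), Car2 (0.62) and Slc9a3r1 (0.10). With the replicate block they were Slc9a7 (-0.03), Slc9a9 (-0.14), Ostm1 (-0.01) and Mcoln1 (-0.04), and without a filter Ostm1 (-0.01). The cause of the last 3 sets was not tested. Leaving out single libraries gave -0.21 to 0.03 for Atp6v0b, -0.03 to 0.19 for Atp6v0c, -0.13 to 0.00 for Atp6v0d1, -0.24 to 0.02 for Atp6v0e, -0.06 to 0.20 for Atp6v1d, -0.36 to 0.04 for Atp6v1e1, -0.32 to 0.07 for Atp6v1f, -0.26 to 0.00 for Atp6v1g1, -0.10 to 0.06 for Atp6v1h, -0.07 to 0.21 for Atp6ap1 and -0.03 to 0.13 for Atp6ap2. It gave -0.03 to 0.30 for Slc9a7, -0.17 to 0.18 for Slc9a9, -0.30 to 0.12 for Slc9a3r1, -0.14 to 0.08 for Slc4a2, -0.18 to 0.17 for Slc4a7, -0.41 to 0.01 for Slc16a7, -2.16 to 0.27 for Car2, -0.06 to 0.18 for Car13, -0.04 to 0.25 for Clcn3, -0.08 to 0.09 for Ostm1, -0.15 to 0.27 for Mcoln1, -0.41 to 0.04 for Tmem206 and -0.04 to 0.55 for Rogdi.

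Car4 and Car12 had 0 to 130 and 0 to 32 counts per library and did not pass the filter, Atp6v1c1 had no counts, and the number of mice limits the precision of all other genes.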
